A study of Mus musculus with 7 samples.

Results

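The Pim kinases are a family of serine/threonine kinases encoded in the mouse by Pim1, Pim2 and Pim3. These genes were taken by name, through their Ensembl identifiers, as 3 of the 51138 genes counted in regulatory T cells (Tregs), and all 3 were among the 15954 genes left after a filter on low counts. The cells were sorted from spleens of RFP-FoxP3+ mice of strain C57/BL6, in which a red fluorescent protein reports Foxp3, the transcription factor that defines Tregs. One group of mice had received 20 ug of FP, a fusion of interleukin-2 (IL-2) with CD25, the alpha chain of its receptor (4 libraries), and the other 100 uL of PBS as a control (3 libraries). Both groups carried the reporter and were sampled 72 h after the injection. The age of the mice and whether animals were pooled are not given in the sources used here, and since the labels do not say that each replicate is a separate animal, p values measure the spread between these libraries.

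Pim kinases lack a regulatory domain and are active as soon as they are made, so that transcription and protein turnover set their activity. In T cells, cytokines of the IL-2 family act through the receptor-bound kinases JAK1 and JAK3 on the transcription factor STAT5, and Pim1 and Pim2 are textbook STAT5 targets. Pim proteins phosphorylate regulators of survival, of the cell cycle and of translation, and overlap in this with the kinase AKT. Both Pim1 and Pim2 have been reported to phosphorylate Foxp3.

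The 3 genes lie on different chromosomes of GRCm38. Pim1 (ENSMUSG00000024014.7) spans chr17:29490753-29496112, Pim2 (ENSMUSG00000031155.15) chrX:7878262-7883432 and Pim3 (ENSMUSG00000035828.10) chr15:88862186-88865726, each on the plus strand. The annotation lists 7 transcripts for Pim1, 4 for Pim2 and 2 for Pim3, which counts per gene do not separate. The sequences before their start sites are shown as a description, and their part in the changes of the Pim genes was not tested. They are from RefSeq (GRCm38.p6), 5′ to 3′ on the plus strand, with every CG dinucleotide in capitals. Each is the first 200 bases of a window that begins 250 bases before a RefSeq start. The positions are chr17:29490535-29490734, chrX:7878056-7878255 and chr15:88861944-88862143.
Pim1: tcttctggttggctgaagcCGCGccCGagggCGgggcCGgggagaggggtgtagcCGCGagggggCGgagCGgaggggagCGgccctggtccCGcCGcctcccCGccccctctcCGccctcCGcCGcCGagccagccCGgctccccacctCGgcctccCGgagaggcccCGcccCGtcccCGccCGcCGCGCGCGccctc
Pim2: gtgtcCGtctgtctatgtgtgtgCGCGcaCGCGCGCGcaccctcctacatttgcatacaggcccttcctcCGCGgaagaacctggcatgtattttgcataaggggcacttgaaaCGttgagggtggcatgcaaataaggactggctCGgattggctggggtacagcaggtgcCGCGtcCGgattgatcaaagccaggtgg
Pim3: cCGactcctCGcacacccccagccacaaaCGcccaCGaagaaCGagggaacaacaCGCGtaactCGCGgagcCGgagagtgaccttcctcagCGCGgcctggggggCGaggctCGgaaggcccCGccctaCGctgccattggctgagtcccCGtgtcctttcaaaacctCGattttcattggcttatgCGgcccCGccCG

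In the full windows of 300 bases (250 before the start and 50 after), Pim1 was 81.3% G or C, above 99.3% of the 32851 windows of all genes. Pim3 was 69.0% and Pim2 62.7%, against a median of 52.7%. These windows held 42 CG dinucleotides for Pim1, 40 for Pim3 and 31 for Pim2, where the median window held 7. A second RefSeq start of Pim1, inside the gene, had a window of 49.0% G or C with 5 CG dinucleotides. STAT factors bind DNA of the form TTCNNNGAA, which reads the same on both strands. These letters were found in none of the 4 Pim windows, and in 8.30% of all windows, which says only that they are not within these 300 bases.

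Of 7 genes listed for the IL-2 receptor, JAK and STAT5, 6 had a window and 0 held the letters. Among 18 other STAT5 target genes listed for comparison, 14 had a window and 8 of them held the letters (9.55% of all genes with a window did). The list was drawn up from knowledge of STAT5 targets, so this count is no independent evidence. Cish and Socs3, feedback inhibitors of cytokine signalling, and Foxp3 are shown as examples, with the motif in capitals. The first Cish motif begins at the transcript start and the second 11 bases after it, and those of Socs3 and Foxp3 begin 154 and 139 bases before a start. The positions are chr9:107296649-107296677, chr9:107296660-107296688, chr11:117969502-117969530 (minus strand) and chrX:7580334-7580362.
Cish, first motif: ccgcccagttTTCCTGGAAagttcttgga
Cish, second motif: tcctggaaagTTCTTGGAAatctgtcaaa
Socs3: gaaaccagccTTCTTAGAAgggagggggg
Foxp3: gagctctgttTTCCAAGAAcgggcattag

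Total counts ran from 9956509 to 13429878 per library, and levels are given as CPM, counts scaled to a common library total after correcting each library with factors from the trimmed mean of M values (TMM). The Treg identity of the sort was seen in its markers: Foxp3 was at 540 ± 52.9 CPM in the FP group (SD, n = 4) against 491 ± 7.24 in the PBS group (SD, n = 3), and Cd3e and Cd4 were also present in every library. Of 10 Treg and CD4 T cell markers listed, 5 were called higher after FP and 0 lower. The other 5, with Foxp3, Cd3e and Cd4 among them, did not pass. The sum of the 10 was 6350.5 to 7649 CPM after FP and 4302 to 4872 CPM after PBS. Of 10 neutrophil markers, Elane and Retnlg had 0 counts in every library and 8 were detected, with a sum of 1.93 to 5.33 CPM after FP and 2.47 to 10.3 CPM after PBS; of the 2 tested, Csf3r (log2 fold change -3.64) fell and Ltf (3.86) rose. Of 8 NK cell markers, Klra8, Klra4 and Klra7 had 0 counts and 5 were detected, with a sum of 1.18 to 2.20 CPM after FP and 4.84 to 6.83 CPM after PBS; both tested markers, Eomes (-2.12) and Kit (-1.58), fell. Macrophage markers were not absent, and they differed between the groups. All 15 markers of monocytes and macrophages were lower after FP, with a summed level of 25.2 to 138 CPM in the FP libraries and 791 to 2012 CPM in the PBS libraries. Over all genes tested, 18.5% were called lower and 21.0% higher. Summed markers of B cells were at 30.6 to 40.0 CPM after FP and 31.5 to 56.0 CPM after PBS, and those of CD8 T cells at 7.84 to 12.9 and 8.93 to 9.80 CPM. The dendritic cell sum was 66.2 to 77.3 CPM after FP and 65.8 to 72.9 CPM after PBS, and its 5 tested markers did not move alike. On the log2 scale Clec9a (-4.31), Itgax (-2.24) and Zbtb46 (-0.82) fell, Bst2 (1.32) rose and Ccr9 (-0.31) did not pass. Markers named here beyond the most abundant were chosen after their values were known. Genes of cell division differed from the macrophage markers in direction, 10 of 10 higher, with a sum of 2044 to 3878 CPM after FP and 221 to 295 CPM after PBS. The part of these shifts in the Pim results was not tested, and in such bulk samples a change in the share of a cell type and a change in RNA per cell cannot be told apart.

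After FP, Pim1 RNA was 2.42-fold that of the PBS group, while Pim2 was 0.790-fold and Pim3 1.07-fold, and of the 3 genes only Pim1 passed the test (edgeR, adjusted p under 0.05). Across all genes tested 39.5% passed, 21.0% higher and 18.5% lower, so 1 call among 3 genes is near that background. Pim1 was also by far the most abundant member in both groups. Its mean share of the family's RNA per length was 81.9% after PBS and 92.3% after FP.

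Pim1, the founding member of the family, measured 526, 595, 479 and 477 CPM in FP replicates 1 to 4 and 250.4, 190.1 and 203 CPM in PBS replicates 1 to 3. Every FP library lay above every PBS library, but the groups were apart, in either direction, for 46.7% of all genes tested. The lowest FP value of Pim1 was 477 against a highest PBS value of 250.4. The means were 519 ± 55.7 CPM (SD, n = 4) and 215 ± 31.8 CPM (SD, n = 3). The log2 fold change was 1.28 (SE 0.13, 95% interval 0.996 to 1.56, edgeR adjusted p = 5.12e-05), higher than that of 94.7% of the genes tested. Replicates differed more than counting predicts: the coefficient of variation was 10.7% after FP and 14.8% after PBS, where 1.31% and 1.97% would come from counting alone. FP replicate 2 was the highest of its group and PBS replicate 1 of its own. PBS replicate 1 also had the lowest summed macrophage markers of the PBS libraries, 791 CPM, while replicates 2 and 3 had 2012 and 1430.3 CPM. In the FP group the order was otherwise. FP replicate 2 had the highest sum, 138 CPM, while replicates 1, 3 and 4 had 77.6, 25.2 and 55.2 CPM. A relation of these sums to Pim1 was not tested.

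The start of Pim1 lies across from Gm26885, an antisense RNA on the minus strand, with which it shares 488 exonic bases. The strand setting of the counting is not given in the sources used here. Gm26885 had 47, 65, 49 and 51 counts in the FP libraries and 41, 43 and 28 in the PBS libraries, while Pim1 had 4898, 6706, 5230 and 6683 counts against 2835, 2593 and 2318. Those counts were small beside those of Pim1 in every library. No gene overlaps Pim2 or Pim3.

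**Figure D1:**
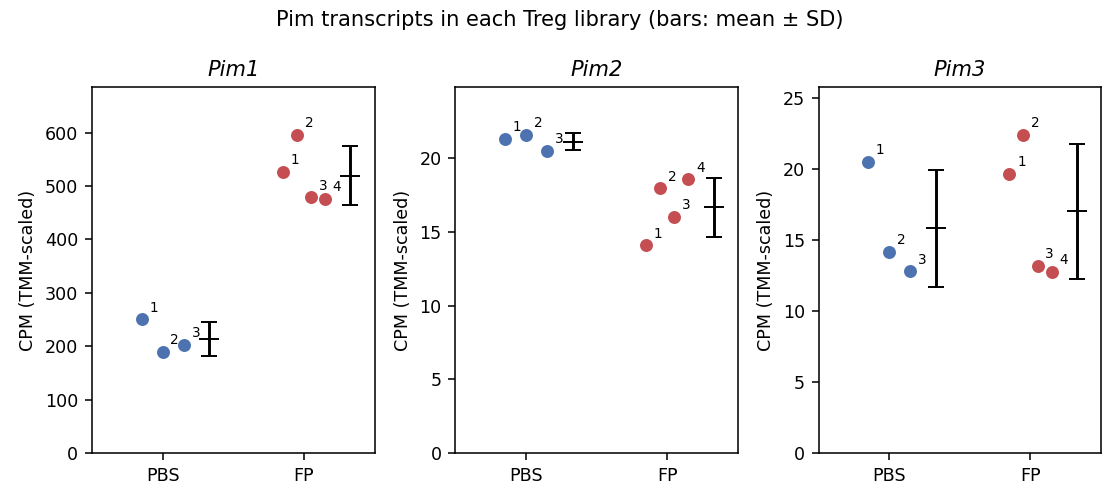
TMM-scaled CPM of Pim1, Pim2 and Pim3 in each PBS (blue) and FP (red) library, with the replicate number beside each point and black bars for mean ± SD (n = 3 and 4), and a separate linear axis from 0 for each gene. The FP and PBS libraries do not overlap for Pim1 (477 or more against 250.4 or less) or Pim2 (18.5 or less against 20.5 or more) and overlap for Pim3. The groups did not overlap for 46.7% of all genes tested.

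Pim2, a kinase known for promoting growth and survival of T cells apart from mTOR signalling, measured 14.1, 17.9, 16.02 and 18.5 CPM in FP replicates 1 to 4 and 21.3, 21.6 and 20.5 CPM in PBS replicates 1 to 3. Every FP library lay below every PBS library, but the groups were apart in this way, in either direction, for 46.7% of all genes tested. Its log2 fold change of -0.34 (SE 0.13, 95% interval -0.63 to -0.05) did not pass the edgeR test (adjusted p = 0.0641). The means were 16.6 ± 2.02 CPM (SD, n = 4) and 21.1 ± 0.551 CPM (SD, n = 3). Counts were low, 131 to 294 per library, and the PBS libraries differed by less than counting alone predicts (2.61% against 6.27%).

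Pim2 passed as lower when FP replicate 4 was left out (-0.40, adjusted p = 0.0342), and also when TMM factors were replaced by upper-quartile factors (-0.54, adjusted p = 0.0106) or by none beyond library size (-0.60, adjusted p = 0.0136). Under these 2 scalings the typical gene also shifted, and the median over all genes went from -0.05 to -0.25 and to -0.31. Relative to that median, Pim2 was at -0.29 with TMM factors, -0.29 by upper-quartile scaling and -0.28 by library size. On the same scale Pim1 was at 1.33, 1.32 and 1.32.

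Pim3, the third member of the family, measured 19.7, 22.4, 13.2 and 12.8 CPM in FP replicates 1 to 4 and 20.5, 14.1 and 12.8 CPM in PBS replicates 1 to 3. The groups covered nearly the same range, with high and low libraries in each. Its log2 fold change was 0.10 (SE 0.24, edgeR adjusted p = 0.759), and its 95% interval of -0.43 to 0.63 allows a level from 0.743 to 1.55 times that of the PBS group. The sign was negative by upper-quartile scaling (-0.11) and by library size alone (-0.18), and relative to the median of all genes Pim3 stayed at 0.15, 0.14 and 0.13. Replicates of Pim3 differed the most of the family, with a coefficient of variation of 28.1% after FP and 26.0% after PBS, where counting predicts 7.37% and 7.35%.

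Levels of different genes were compared per kilobase of annotated exon (3362 bases for Pim1, 2795 for Pim2 and 2427 for Pim3). On this scale Pim1 was at 154 ± 16.6 CPM per kb in the FP group (SD, n = 4) against 63.8 ± 9.45 in the PBS group (SD, n = 3). It ranked 258 after FP and 446 after PBS among the 15916 tested genes with a length. Pim2 was at 5.96 ± 0.722 CPM per kb in the FP group (SD, n = 4) against 7.55 ± 0.197 in the PBS group (SD, n = 3). Pim3 was at 7.004 ± 1.97 in the FP group (SD, n = 4) against 6.51 ± 1.69 in the PBS group (SD, n = 3), so the order of Pim2 and Pim3 lay within their spread in both groups. Both sat near the middle of all genes, above 54.7% and 58.9% of them after FP.

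Pim1 made up 91.9% to 92.7% of the summed Pim CPM per kb in the FP libraries and 80.7% to 82.7% in the PBS libraries. The Pim2 share was 3.59 ± 0.579% in the FP group (SD, n = 4) against 9.82 ± 1.31% in the PBS group (SD, n = 3). The Pim3 share was 4.13 ± 0.751% in the FP group (SD, n = 4) against 8.29 ± 1.05% in the PBS group (SD, n = 3). The sum itself was 167 ± 18.5 CPM per kb in the FP group (SD, n = 4) against 77.9 ± 11.1 in the PBS group (SD, n = 3), and these sums and shares are given as descriptions without a test.

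**Figure D2:**
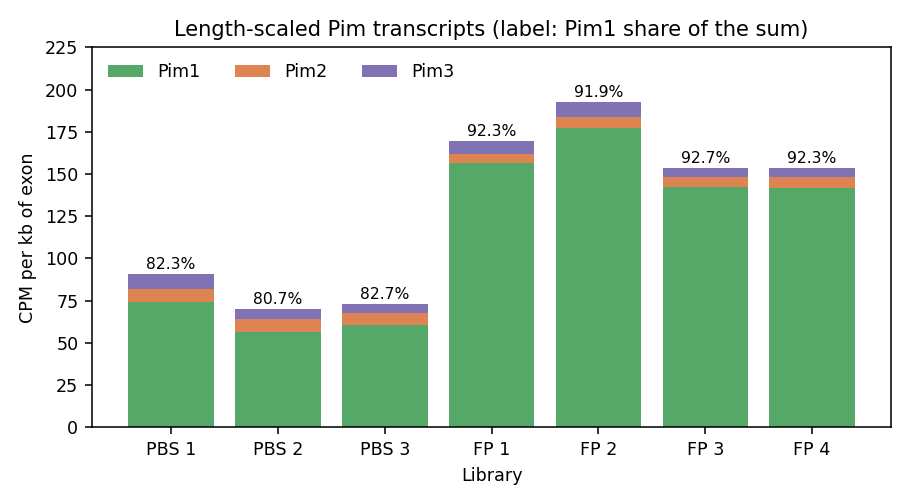
Stacked bars give CPM per kb of exon for Pim1 (green), Pim2 (orange) and Pim3 (purple) in each library, with the Pim1 share of the sum above each bar. The 4 FP bars reach 154 to 193 and the 3 PBS bars 70.1 to 90.5, and nearly all of the difference is Pim1.

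Whether members changed by different amounts was asked with the log2 ratio of their counts within a library, in which the scaling of the library cancels. The ratio of Pim1 to Pim2 counts was 37.4, 33.2, 29.9 and 25.7 in FP replicates 1 to 4, and 11.8, 8.82 and 9.91 in PBS replicates 1 to 3. All FP libraries lay above all PBS libraries. The mean log2 ratio was 4.97 ± 0.23 in the FP group (SD, n = 4) against 3.34 ± 0.21 in the PBS group (SD, n = 3), a difference of 1.63 (two-sided exact permutation p = 0.0286, the smallest that the 35 assignments of the libraries can give, and 0.0429 after Benjamini-Hochberg adjustment over 3 pairs). In CPM, Pim1 was higher and Pim2 lower in every FP library than in every PBS library. Their ratio therefore had to separate the groups, and p had to be the smallest possible. The test adds nothing to the values of each gene, whose log2 fold changes had opposite signs (1.28 for Pim1 and -0.34 for Pim2).

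The ratio of Pim1 to Pim3 counts was 26.8, 26.6, 36.3 and 37.3 in the FP libraries and 12.2, 13.4 and 15.9 in the PBS libraries, again without overlap. Its mean log2 value was 4.97 ± 0.27 in the FP group (SD, n = 4) against 3.78 ± 0.19 in the PBS group (SD, n = 3), a difference of 1.19 (exact permutation p = 0.0286, 0.0429 after adjustment). The share of all gene pairs whose ratios lie apart was not computed. Single genes lay apart for 46.7% of all genes tested, so such separation is not particular to the Pim pairs. For Pim2 to Pim3 the count ratios were 0.716, 0.802, 1.22 and 1.45 after FP and 1.04, 1.52 and 1.60 after PBS, which overlap. That difference of -0.44 on the log2 scale had an exact permutation p = 0.257, and 0.257 after adjustment. With 7 libraries, this does not show that Pim2 and Pim3 changed alike.

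**Figure D3:**
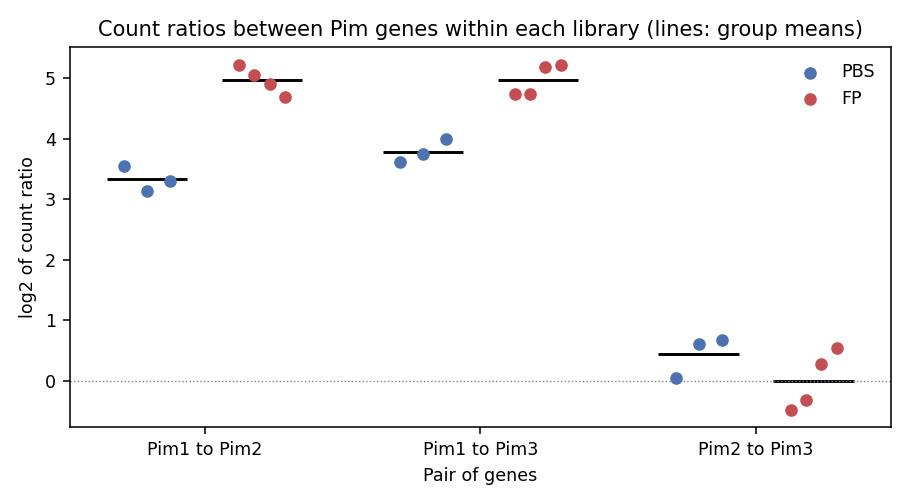
Log2 of the count ratio of each pair of Pim genes in each PBS (blue) and FP (red) library, with a black line at each group mean and a dotted line at equal counts. The groups are apart for Pim1 to Pim2 (4.68 or more against 3.56 or less) and Pim1 to Pim3 (4.73 or more against 3.99 or less) and overlap for Pim2 to Pim3. The share of all gene pairs that lie apart was not computed, and for the CPM of single genes it was 46.7%.

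Upstream of the Pim genes, all 3 receptor chains rose after FP and no JAK or STAT5 gene was called higher in the main analysis. Of 7 genes of the IL-2 receptor, JAK and STAT5 list, 3 rose, 1 fell and 3 did not pass (median 0.29 on the log2 scale, against -0.05 for all genes tested). For all genes tested the shares called were 21.0% higher and 18.5% lower. Il2ra, which encodes CD25, rose by 1.69 (SE 0.14), Il2rb, the chain that signals with it, by 1.29 (SE 0.16), and Il2rg, the chain shared with other cytokine receptors, by 0.55 (SE 0.10). Il2ra was at 1938 ± 317 CPM in the FP group (SD, n = 4) against 602 ± 32.6 in the PBS group (SD, n = 3). The rise of Pim1 was of the size of that of Il2rb. Jak1 (-0.02) and Jak3 (0.29, adjusted p = 0.0822) did not pass. Of the STAT5 genes, Stat5a fell by 0.29 on the log2 scale (SE 0.09, edgeR adjusted p = 0.0282) and Stat5b was at -0.15 (adjusted p = 0.187). Stat5b was called lower by upper-quartile scaling (-0.36) and by library size alone (-0.42), and Jak1 was called lower by library size alone (-0.29). Jak3 was called higher when FP replicate 1 was left out (0.38, adjusted p = 0.0264) and with no filter on low counts (0.31, adjusted p = 0.0430). Stat5a did not pass without FP replicate 1 or 3 or any single PBS replicate (adjusted p from 0.0544 to 0.105) or with no filter on low counts (0.0745).

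Of the 18 other STAT5 targets, 9 were called higher, 2 lower and 7 neither (median 0.35), and 5 were called lower by upper-quartile scaling and by library size alone. In the main analysis 21.0% of all genes tested were called higher and 18.5% lower. The feedback inhibitors moved together: Socs2 rose by 2.46 (SE 0.11), Socs1 by 1.40 (SE 0.10), Socs3 by 1.37 (SE 0.14) and Cish by 1.05 (SE 0.10). Pim1 thus lay between Cish and Socs3 in size. Cish was at 317 ± 28.2 CPM in the FP group (SD, n = 4) against 152 ± 10.7 in the PBS group (SD, n = 3). The cytokine gene Osm rose by 1.34, the cell cycle kinase gene Cdk6 by 1.62, and the D cyclin genes Ccnd2 and Ccnd3 by 0.53 and 0.46. Gzmb, which encodes the killing protease granzyme B, rose by 8.05 (SE 0.35).

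None of the survival genes on that list passed. Bcl2 was at -0.10, Mcl1 at -0.10 and Bcl2l1, which encodes BCL-XL, at -0.01, while Bcl2 and Mcl1 passed as lower by upper-quartile scaling (-0.29 and -0.30) and by library size alone (-0.36 and -0.37). Myc, whose protein Pim kinases stabilise, was at 0.23 (SE 0.14, edgeR adjusted p = 0.242), with 114 ± 19.4 CPM in the FP group (SD, n = 4) and 97.5 ± 13.5 in the PBS group (SD, n = 3). It was called higher when FP replicate 4 was left out (0.33, adjusted p = 0.0394). The lymphotoxin genes Lta (-0.02) and Ltb (-0.31) and Foxp3 (0.14) did not pass. Ltb was called lower when FP replicate 2 was left out (-0.40, adjusted p = 0.0312) and by upper-quartile scaling (-0.52) and library size alone (-0.59), under which Foxp3 was at -0.07 and -0.13. With DESeq2 size factors Ltb (-0.29) was not called and Foxp3 was at 0.16. The repressor gene Bcl6 and the receptor gene Il7r, both held down by STAT5, fell by 1.37 (SE 0.20) and 1.17 (SE 0.15) on the log2 scale. Ccnd2 and Ccnd3 no longer passed with library size alone (adjusted p = 0.0618 and 0.252), nor Ccnd3 with upper-quartile factors (0.0658).

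**Figure D4:**
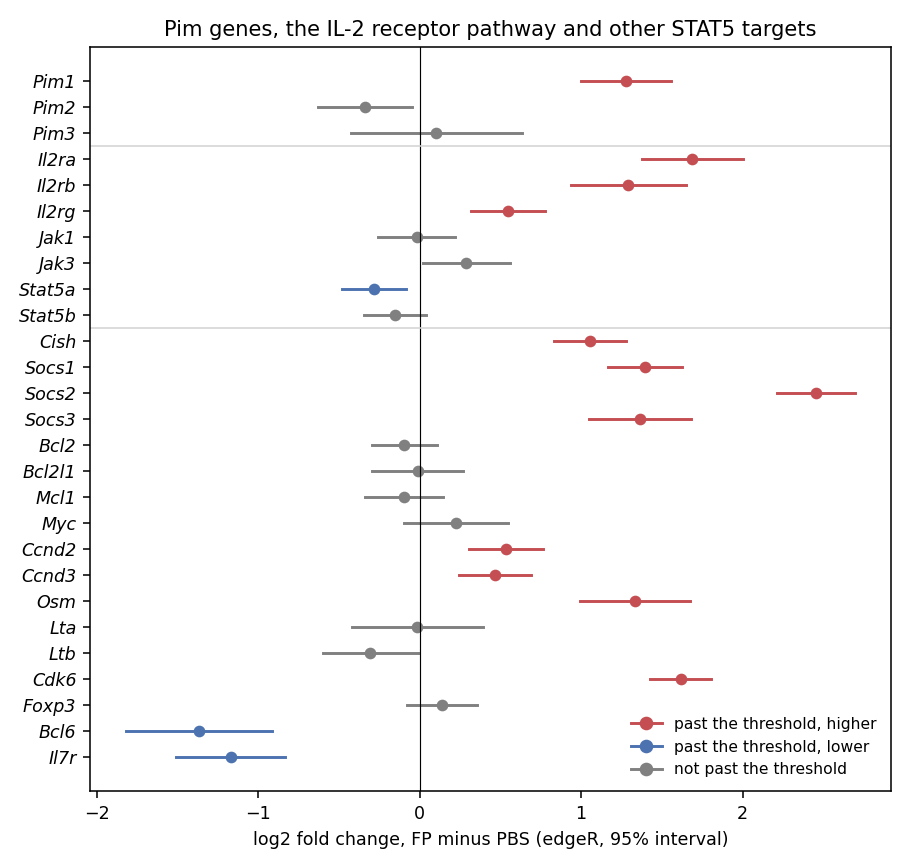
Log2 fold change, FP minus PBS, with its 95% interval from edgeR for the Pim genes, the IL-2 receptor, JAK and STAT5 list and the other STAT5 targets except Gzmb (8.05, off the scale), in red or blue where the adjusted p was under 0.05. Pim1 (1.28) lies near Il2rb (1.29), Osm (1.34) and Socs3 (1.37), while Pim2 and Pim3 lie among the genes that did not pass.

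Over all genes tested, 21.0% were called higher after FP and 18.5% lower. Of 30 genes whose proteins are reported as Pim substrates or partners, 13 rose, 2 fell and 15 did not pass (median log2 fold change 0.27). The number called lower was 9 by upper-quartile scaling, 8 by library size alone and 0 to 2 with single libraries left out. Cdkn1a, which encodes the inhibitor p21, rose by 4.60 (SE 0.34), with 594 counts in the FP libraries together and 19 in the PBS libraries. Cdc25c, a phosphatase that drives entry into mitosis, had 511 and 6 counts and rose by 6.05 (SE 0.52), or by 7.71 without PBS replicate 2, which held 5 of the 6. Cdkn1b, which encodes the inhibitor p27, fell by 0.30 on the log2 scale (SE 0.10, edgeR adjusted p = 0.0318). Foxo1, a transcription factor of resting T cells, fell by 0.26 (SE 0.09, adjusted p = 0.0387).

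These 2 falls did not hold when single libraries were left out. Foxo1 lost its call without any single library (adjusted p from 0.0512 to 0.180), and Cdkn1b without FP replicate 1 or 3 or any single PBS replicate (0.0593 to 0.136). The drug efflux pump gene Abcb1a rose by 0.99. Bad, whose death-promoting product Pim kinases inactivate and which is named here after its value was known, rose by 0.64 (SE 0.15), with 12.2 ± 1.17 CPM in the FP group (SD, n = 4) and 7.79 ± 0.304 in the PBS group (SD, n = 3). Cell division genes rose in the same libraries, and their part in these changes was not tested.

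In the AKT and mTOR pathway, which shares substrates with Pim kinases, 23 of 24 listed genes were tested, of which 8 rose, 6 fell and 9 did not pass (median 0.07). Shares over all genes tested were 21.0% higher and 18.5% lower. Akt1, a gene of the AKT kinase itself, rose by 0.89 (SE 0.12). Pik3cg, a catalytic subunit of PI3 kinase, rose by 0.52, Eif4e, the cap-binding translation factor, by 0.59, and Pdpk1, the kinase that activates AKT, by 0.24. Deptor, an inhibitor of mTOR, fell by 1.87 from a low level of 2.30 ± 0.159 CPM in the PBS group (SD, n = 3), Tsc1 by 0.35 and Rictor by 0.29. The counts of this list depended on scaling, with 3 higher and 10 lower by upper-quartile factors and 1 and 9 by library size alone. Eif4e, Tsc1, Rictor and Pdpk1 lost their calls when PBS replicate 3 was left out (adjusted p = 0.0808, 0.0544, 0.0615 and 0.127), as did Tsc1 without PBS replicate 2 (0.0903) and Rictor without PBS replicate 1 (0.0773). Pdpk1 also lost its call without FP replicate 2 or 3 or PBS replicate 1 or 2 (0.0557 to 0.106).

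Genes that act on the stability of Pim proteins mostly rose: 7 of 8 were higher and 1 did not pass (median 0.58). Over all genes tested 21.0% were higher. The listed genes work in opposite ways. The chaperone gene Hsp90ab1 and the co-chaperone gene Cdc37 rose by 0.75 and 0.57, and HSP90 is known to protect Pim1. Another chaperone gene, Hspa8, rose by 1.13 and is placed on neither side here. Ppp2cb, a catalytic subunit of the phosphatase PP2A, under which Pim1 is degraded, rose by 0.59. Pim protein was not measured.

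The genes with the profile closest to each member were found over the 7 libraries, from the root mean square difference of log2 CPM after centring each gene on its own mean, among 8351 genes with a mean of at least 10 CPM. Since libraries of both groups enter this measure, a log2 fold change near that of the member follows from the choice and is no separate result. Among the closest to Pim1 were Dek (0.08), a chromatin protein, and Capn2 (0.09), a calpain protease, with log2 fold changes of 1.35 and 1.30. Closest to Pim2 were Slc23a2, a vitamin C transporter (0.03), Polm, a DNA polymerase (0.03), and Rin3 (0.05). Their log2 fold changes were -0.35, -0.29 and -0.30, of which those of Slc23a2 and Rin3 passed (edgeR adjusted p = 0.0168 and 0.0241). Slc23a2 lost its call without any single PBS replicate (0.0550 to 0.0726). Rin3 lost its call with no filter (0.0570) and without FP replicate 1 or 3 or any single PBS replicate (0.0512 to 0.107), while Polm gained one by upper-quartile scaling (-0.49), by library size alone (-0.55) and without FP replicate 4 (-0.35). Closest to Pim3 were Zfp36, which promotes mRNA decay (0.10), Dusp4, a phosphatase of MAP kinases (0.11), and Siah2, a ubiquitin ligase (0.12). Their log2 fold changes of 0.02, 0.26 and 0.15 did not pass, and that of Zfp36 turned to -0.20 with upper-quartile factors.

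Neighbours within 10000 bases were listed by position alone. Besides Gm26885 at Pim1 they were Otud5, a deubiquitinase gene that ends 1636 bases before Pim2, and Slc35a2, a sugar transporter gene that begins 596 bases after it. The log2 fold changes were -0.22 for Otud5 (SE 0.10, edgeR adjusted p = 0.113) and -0.17 for Slc35a2 (SE 0.16, adjusted p = 0.418), and neither passed. Gm26885 was at 0.62 (SE 0.24, adjusted p = 0.0677), and Pim3 had no such neighbour.

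**Figure D5:**
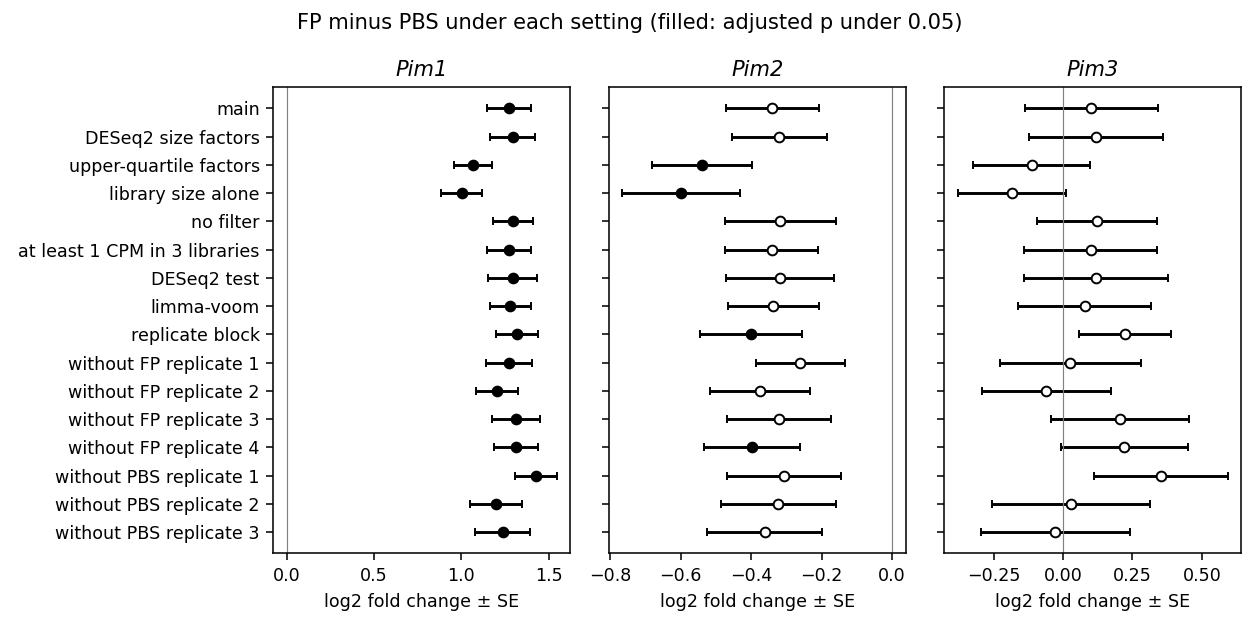
Log2 fold change, FP minus PBS, of each Pim gene with its SE (horizontal bars) under the main analysis and 15 alternatives, filled where the adjusted p was under 0.05, with a separate axis for each gene. Pim1 stays between 1.0025 and 1.43 and is filled throughout, Pim2 stays below 0 and is filled in 4 alternatives, and Pim3 falls on both sides of 0.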

How the data were processed

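RNA of sorted splenic Tregs was sequenced in 4 FP and 3 PBS libraries, made from 25 ng of total RNA after removal of ribosomal RNA, per the labels' protocols. The authors deposited whole-number read counts for each gene, without normalization. Per the design text and the submitters' processing notes, reads were mapped to GRCm38 with STAR (2.5.0 in the former, 2.5.0b in the latter), and featureCounts 1.5.0 assigned them to genes of GENCODE M13. Strand and multi-mapping settings are not given in the sources used here. Of 51138 gene identifiers, 50376 received a symbol. Coordinates, exon lengths and overlaps came from GENCODE M21, of the same build, and promoter sequences from RefSeq (GRCm38.p6).

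The FP and PBS groups were tested with edgeR 4.0.16 (R 4.3.3; filterByExpr, TMM factors, robust quasi-likelihood test, Benjamini-Hochberg adjustment over the 15954 genes tested, threshold 0.05). Standard errors come from the F statistic. For count ratios, a two-sided exact permutation test ran over the 35 assignments of libraries to groups. The edgeR, DESeq2 1.42.0 and limma 3.58.1 (voom) fits were tested on simulated data. Alternatives were other scalings, filters and tests, a replicate block and leaving out each library.

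Members and lists were chosen with earlier results of these data known. The genes to name were every Pim gene, every gene of the IL-2 receptor and STAT5 target lists, up to 4 genes past the threshold with the smallest p in each direction of each other pathway list, the 2 most abundant markers of each cell type and the 3 closest profiles. Some of these are not reported here. Of 75 such genes, 23 overlap another tested gene, Pim1, Il2ra, Jak1, Jak3, Stat5a, Bcl2, Bcl6, Ccnd3, Cdk6, Ltb and Foxp3 among them, and are less certain without the strand setting. A count of 0 allows up to 3 counts, 0.214 to 0.322 CPM, for counting error only.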

Additional observations from a re-analysis of the deposited data

Results flagged for a closer look

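The spread within the 4 FP libraries was examined for 80 sets of values: the Pim levels, ratios and shares and the other named genes. In 3 of them 1 library stood apart from the rest, and chance gives about 1 in 20. None was a Pim gene, ratio or share. Ccna2, a cyclin of S phase and mitosis, was at 69.7 CPM in FP replicate 4 and at 124 to 134 CPM in the other FP libraries. The platelet integrin gene Itga2b was at 3.55 CPM in FP replicate 1, against 2.29 to 2.50 CPM. The neutrophil granule gene Ltf was at 2.66 CPM in FP replicate 2, against 0.860 to 0.927 CPM.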

How the results depend on the processing

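Pim1 stayed higher and past the threshold in all 15 alternatives (adjusted p at most 0.000779). Pim2 stayed lower in all 15, from -0.40 to -0.26 with single libraries left out, and passed in 4: upper-quartile factors (-0.54), no factors beyond library size (-0.60), the replicate block (-0.40, adjusted p = 0.0299) and without FP replicate 4. Pim3 passed in none. It was at -0.11 by upper-quartile scaling, at -0.18 by library size alone, and from -0.061 to 0.35 with single libraries left out. Over all genes, 2023 were higher by library size alone, and 4823 and 5046 lower by upper-quartile factors and library size alone, against 3355 and 2953. With single libraries left out, 4088 to 7277 genes passed and 1774 to 3389 were lower; the fewest came without PBS replicate 3, and without PBS replicate 2 there were 1869 lower. The difference in log2 Pim1 to Pim2 ratio ran from 1.53 to 1.74 with single libraries left out (exact permutation p from 0.0667 to 0.100, the smallest that 6 libraries can give) and that of Pim1 to Pim3 from 1.10 to 1.29. The replicate numbers were not taken to pair the libraries, since the labels do not say that they do. Same-number correlations of deviations were 0.219, 0.0702 and 0.0966. These were the best matches of FP replicates 1 and 3, while FP replicate 2 correlated best with PBS replicate 1 (0.208). The largest correlation was 0.394, between FP replicate 4 and PBS replicate 3. With the replicate block, 7870 genes passed, Pim1 was at 1.32 and Pim3 at 0.22. Myc (0.33, adjusted p = 0.00754), Dusp4 (0.38, 0.0107) and Polm (-0.35, 0.0226) gained a call and Foxo1 lost its own (0.0698), and the ratio differences were 1.72 and 1.10 (exact permutation p = 0.250, the smallest that 3 pairs can give). Some other named genes changed sign. By library size alone Dusp4 was at -0.030, Myc at -0.056, Pdpk1 at -0.035, Foxp3 at -0.13, Siah2 at -0.13 and Zfp36 at -0.28; by upper-quartile factors Foxp3 was at -0.068, Siah2 at -0.056 and Zfp36 at -0.20, and by voom Zfp36 at -0.027. Bcl2l1 was at 0.0046 by DESeq2 size factors, 0.0066 with no filter and 0.0046 by the DESeq2 test, Lta at 0.0024, 0.0061 and 0.0026, and Jak1 at 0.0032 with no filter. With the replicate block Cd8a, Jak1 and Lta were at 0.030, 0.023 and 0.029. With single libraries left out, Bcl2l1 ran from -0.082 to 0.078, Cd8a from -0.28 to 0.038, Jak1 from -0.084 to 0.081, Lta from -0.20 to 0.094, Siah2 from -0.033 to 0.40 and Zfp36 from -0.20 to 0.19. The causes were not tested. Of 1060 alternatives for the 71 other named genes, 937 kept direction and side of the threshold, 65 lost the call, 22 gained one and 36 changed sign. Pim2 and Pim3 had 131 to 294 counts a library, and Pim3 replicates varied more than counting predicts.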
